A study of Mus musculus with 4 samples.

Results

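The genes described here are 9 regulators of the organizer and of the anterior primitive streak, *Gsc*, *Foxa2*, *Lhx1*, *Hhex*, *Otx2*, *Chrd*, *Nog*, *Noto* and *Shh*, followed through 3 stages of mouse gastrulation in single-cell RNA sequencing. They were chosen by name for what is known of them, and their rows were read from the count table of each stage. They are 9 of the 19616 genes listed in at least 1 table. All 9 are among the 18640 genes of the latest stage, and 8 are among the 16639 and 16341 genes of the earlier stages, where *Shh* is unlisted and has no value.

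Each stage was 1 library of pooled whole embryos carrying the alleles TnEGP-CreERT2/+; R26Rtdtomato/R26Rtdtomato. Cells were taken at mid-streak to late-streak (MS-LS, E6+21h), at no bud to early bud (OB-EB, E7+3h) and at early head fold (EHF, E7+14h). All pregnant mice had received tamoxifen by oral gavage (0.08 mg/bw). The time of gavage was E6+5h for the first stage, E6+21h for the second and E7+7h for the third, and no group without tamoxifen or without the alleles was analysed here. The Cre recombinase is made from the *T* locus and acts only in cells that express *T*, a T-box gene of the streak and notochord, so the allele is itself linked to a gene that several of these cells use, and the embryos carry 1 modified *T* allele.

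The organizer is the region at the anterior end of the primitive streak, in later embryos the node, whose cells give rise to the axial mesoderm (prechordal plate and notochord) and to the definitive endoderm. FOXA2, LHX1, GSC and OTX2 are transcription factors that act in the anterior streak and in the tissues that leave it, and HHEX acts in the anterior endoderm and also in blood vessel and blood precursors. NOTO is a transcription factor of the node and notochord, Chordin and Noggin are secreted proteins that bind BMP ligands, and SHH is the Hedgehog ligand of the node and notochord. The visceral endoderm, an extra-embryonic layer that surrounds the epiblast, also uses *Foxa2*, and its anterior part also uses *Hhex*, *Lhx1*, *Otx2* and *Gsc*.

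In stage order the libraries held 3635, 3994 and 3494 cells, with medians of 4251, 2620.5 and 5584 unique molecular identifiers (UMIs, counted transcripts) per cell. With 1 library per stage there was no replicate and no test. Levels are given as CPM, a gene's UMI sum in a group of cells per 1000000 UMIs of that group, with exact Poisson 95% intervals. Shares of cells with a UMI carry exact binomial (Clopper-Pearson) 95% intervals, and all intervals cover counting error only. Levels were compared between groups of cells for 1 gene at a time and not between genes. The libraries shared between 12 and 18 cell barcodes. Cells were clustered with the 9 genes held out of the genes used, and clusters were named by other markers as "like" a cell type. The axial (node and notochord)-like class had 7, 8 and 11 of its 12 markers detected at the 3 stages and held 64, 55 and 44 cells. The definitive endoderm (DE)-like class had *Cer1* and *Sox17* among its detected markers at all 3 stages and held 145, 202 and 76 cells. The visceral endoderm-like class held 527, 288 and 333 cells. Extra-embryonic ectoderm-like cells (538, 244 and 292 cells, with medians of 4838, 3034.5 and 7124 UMIs), of which none of the 9 genes is a known marker, served as the background for shares of cells. Clusters that no marker list named are given by number (4, 9 and 9 clusters).

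Over whole libraries, the transcription factors of the anterior streak were at their highest at MS-LS or OB-EB, and the genes of the node and notochord at OB-EB or EHF. *Gsc* was at 24.7 CPM (22.5 to 27.1) at MS-LS, 9.44 (7.79 to 11.3) at OB-EB and 0.883 (0.524 to 1.40) at EHF, where 18 UMIs were left. *Foxa2* was at 33.7 (31.0 to 36.5), 14.1 (12.1 to 16.4) and 8.39 (7.18 to 9.75) CPM. *Otx2* was at 60.8 (57.3 to 64.6), 38.3 (34.9 to 41.98) and 23.0 (20.9 to 25.2) CPM. The intervals of these 3 genes were apart at every step. *Lhx1* was highest at OB-EB, with 64.7 (61.0 to 68.5), 128 (122 to 134) and 10.3 (8.91 to 11.8) CPM in stage order. *Hhex* hardly moved, with 18.9 (16.9 to 21.0), 19.5 (17.1 to 22.2) and 15.02 (13.4 to 16.8) CPM, and only its EHF interval lay below the others.

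The remaining genes were rare in whole libraries, each with under 100 UMIs per stage. *Noto* was at 0.835 (0.467 to 1.38), 4.27 (3.19 to 5.60) and 4.52 (3.64 to 5.54) CPM, which put MS-LS below both later stages. *Chrd* was at 5.45 (4.43 to 6.65), 7.06 (5.65 to 8.72) and 3.63 (2.85 to 4.56) CPM. *Nog* had 23, 9 and 76 UMIs and was at 1.28 (0.812 to 1.92), 0.739 (0.338 to 1.40) and 3.73 (2.94 to 4.67) CPM. *Shh* had 51 UMIs at EHF, or 2.503 CPM (1.86 to 3.29). The libraries differ in how many cells of each class they caught, so these sums follow class sizes as well as levels within a class. With the visceral and parietal endoderm-like, extra-embryonic ectoderm-like and ectoplacental-like cells left out, *Foxa2* was at 36.2, 13.8 and 5.06 CPM, *Nog* at 1.41, 0.886 and 2.91 CPM and *Noto* at 1.25, 5.12 and 5.63 CPM. *Foxa2* at EHF moved most of these, to an interval (4.01 to 6.30) below that over all cells.

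**Figure D1:**
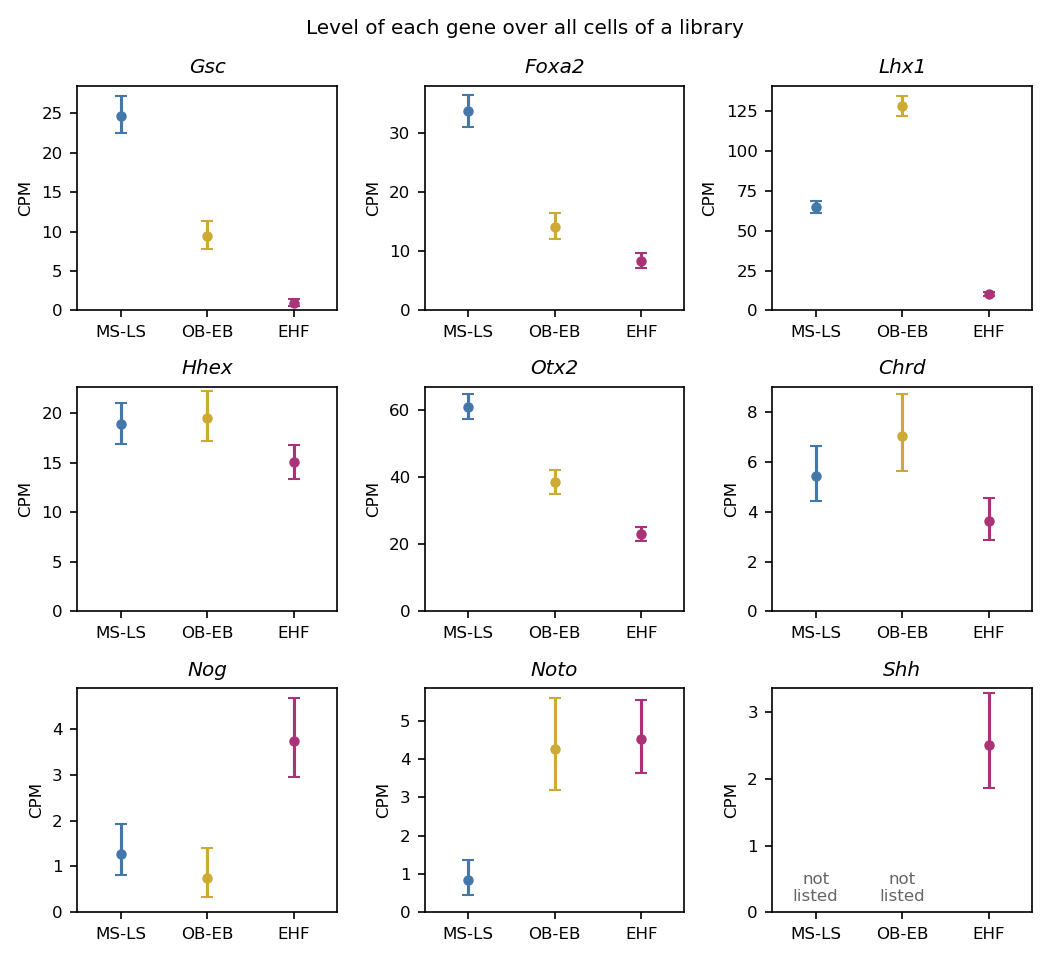
Level of each of the 9 genes in CPM over all cells at each stage, with exact Poisson 95% intervals as bars. *Gsc*, *Foxa2* and *Otx2* step down at each stage, *Lhx1* peaks at OB-EB with 128, *Noto* is higher at both later stages, and *Shh* is not listed before EHF.

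*Gsc*, which encodes a homeodomain repressor of the prechordal plate, was spread over streak derivatives at MS-LS and was then lost. At MS-LS it was at 149 CPM (123 to 178) in DE-like cells and 93.9 (57.4 to 145) in axial-like cells, followed by 51.1 (41.0 to 62.9) in nascent mesoderm-like and 40.4 in primitive streak-like cells. The neighbours DE-like and axial-like did not differ beyond counting error (log2 ratio 0.66, interval −0.03 to 1.43), nor did nascent mesoderm-like and streak-like cells (0.34, −0.12 to 0.80). Axial-like cells were above nascent mesoderm-like ones (0.88, 0.10 to 1.59), and streak-like cells were above epiblast-like ones (2.31, 1.72 to 2.93). At OB-EB *Gsc* was at 41.6 (27.4 to 60.6) in DE-like cells, 20.3 in streak-like cells and 21.0 (4.33 to 61.3, 3 UMIs) in axial-like cells. At EHF it was at 9.14 (2.49 to 23.4, 4 UMIs) in DE-like cells and had no UMI in axial-like cells, with an interval up to 21.3 CPM. Within DE-like cells the level fell by 1.84 on the log2 scale from MS-LS to OB-EB (interval of the change −2.50 to −1.22) and by 4.02 from MS-LS to EHF (−5.92 to −2.63). At least 1 *Gsc* UMI was found in 47.6% of DE-like cells at MS-LS (median 4751 UMIs) and in 11.9% at OB-EB (median 2813.5), against 1.86% and 0.410% of the extra-embryonic ectoderm-like cells.

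*Lhx1*, a LIM homeodomain factor needed for the head organizer, was in the mesoderm as well as in the DE. At MS-LS it was at 305 CPM (267 to 346) in DE-like cells and 268 (244 to 293) in nascent mesoderm-like cells, which did not differ beyond counting error (log2 ratio 0.19, −0.05 to 0.41). Axial-like cells, with 146 (98.9 to 207), lay below the nascent mesoderm-like cells by 0.88 (0.36 to 1.46). Streak-like cells had 102 and epiblast-like cells 3.49 CPM, a log2 ratio of 4.87. At OB-EB the named classes with the most *Lhx1* were DE-like (301, 260 to 346), streak-like (208) and axial-like cells (119, 69.2 to 190). Unnamed clusters 9 and 13, both led by *Lefty2*, *Myl7* and other mesoderm genes and scoring highest for nascent mesoderm, were higher still at 479 (425 to 539) and 548 (488 to 613) CPM. In cluster 13, 71.9% of cells (median 3522 UMIs) had an *Lhx1* UMI, against 0 of 244 extra-embryonic ectoderm-like cells.

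At EHF *Lhx1* was low in the DE. It was at 13.7 CPM (5.03 to 29.8, 6 UMIs) in DE-like cells, and this was 4.46 below OB-EB on the log2 scale (−5.92 to −3.31), while from MS-LS to OB-EB the DE-like level had moved by −0.02 (−0.30 to 0.26). Axial-like cells kept 116 (70.6 to 178), with a log2 ratio of EHF over MS-LS of −0.33 (−1.22 to 0.52). They stood above the next class, nascent mesoderm-like cells with 54.0, by 1.10 (0.28 to 1.87), and presomitic mesoderm-like cells (34.4) and cardiac-like cells (27.4) followed. The axial-like class was therefore below the DE-like class at MS-LS (−1.07, −1.66 to −0.52) and OB-EB (−1.34, −2.15 to −0.62) and above it at EHF (3.08, 1.71 to 4.68). *Lhx1os*, transcribed antisense beside *Lhx1*, was among the leading genes of the DE-like cluster at MS-LS and of the larger DE-like cluster at OB-EB, so the DE-like level of *Lhx1* there is not independent of the clustering, although *Lhx1* itself was held out.

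*Otx2*, a homeodomain factor of the epiblast, anterior endoderm and head, was spread over several classes at MS-LS. It was at 154 CPM (127 to 184) in DE-like cells, 105 (95.9 to 116) in epiblast-like cells, 94.5 in streak-like and 70.6 in nascent mesoderm-like cells, with DE-like above epiblast-like cells by 0.54 (0.24 to 0.84). Epiblast-like cells held 41.5% of its UMIs. From MS-LS to OB-EB its DE-like level fell by 1.35 (−1.91 to −0.82), and at OB-EB epiblast-like (79.2, 69.2 to 90.2) and DE-like cells (60.1, 42.8 to 82.2) did not differ beyond counting error (0.40, −0.10 to 0.93). At EHF epiblast-like cells were at 153 (132 to 177) and above DE-like cells (73.1, 50.02 to 103.2) by 1.07 (0.52 to 1.66). This EHF class was cluster 3 (164 cells), which had *Sox9*, *Irx5* and *Irx3* among its leading genes. Rostral neuroectoderm was its second type by score (0.966, against 1.29 for epiblast), and *Utf1* and *Pou5f1* were not among its detected markers. The name epiblast-like is therefore less certain at EHF than at the earlier stages. Its highest level at EHF was in cluster 28, 47 cells led by *Hesx1* and *Six3*, genes of the anterior neural plate, with 223 CPM (178 to 275) and a UMI in 87.2% of cells (median 7561 UMIs), against 0.685% of extra-embryonic ectoderm-like cells. Axial-like cells had 42.3 (19.3 to 80.2), 35.0 (5 UMIs) and 5.78 CPM (1 UMI) at the 3 stages.

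*Hhex*, a homeobox gene of the anterior endoderm and of vessel and blood precursors, was divided between the DE and the vessels. In DE-like cells it was at 128 CPM (104 to 156) at MS-LS, 136 (109 to 167) at OB-EB and 50.3 (31.5 to 76.1) at EHF, with log2 changes from MS-LS of 0.08 (−0.35 to 0.51) and −1.35 (−2.09 to −0.67). In endothelium-like cells it was at 96.4 (66.3 to 135, 68 cells) at MS-LS and 191 (156 to 231, 87 cells) at EHF. The endothelium-like cells did not differ from DE-like cells beyond counting error at MS-LS (DE over endothelium 0.41, −0.17 to 1.03) and were above them at EHF by 1.92 (1.25 to 2.66). No OB-EB cluster was named after the endothelium, and the cluster that scored highest for it there (cluster 17, led by *Lmo2* and *Fli1*) had 130 CPM (98.6 to 167) of *Hhex*. At EHF 64.4% of endothelium-like cells (median 5760 UMIs) had a *Hhex* UMI against 1.37% of extra-embryonic ectoderm-like cells, and blood-like cells were at 47.7 CPM (32.4 to 67.7). Axial-like cells were below DE-like cells in *Hhex* by 1.96 at both MS-LS and OB-EB.

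*Foxa2*, a winged-helix factor needed for the node, notochord and endoderm, was the gene that axial, DE and extra-embryonic endoderm classes had in common. In axial-like cells it was at 216 CPM (158 to 288), 168 (108 to 250) and 144 (93.5 to 213) at MS-LS, OB-EB and EHF, and EHF did not differ from MS-LS beyond counting error (−0.58, −1.35 to 0.15). The shares of axial-like cells with a UMI were 43.8%, 34.6% and 43.2% (medians 3043.5, 2285 and 3044.5 UMIs), against 1.49%, 0.410% and 0.685% of extra-embryonic ectoderm-like cells. In DE-like cells it was at 160 (133 to 191), 83.3 (62.5 to 109) and 93.7 (67.2 to 127). Axial-like and DE-like cells did not differ beyond counting error at MS-LS (0.43, −0.09 to 0.93), axial-like cells were higher at OB-EB (1.01, 0.25 to 1.73), and at EHF they again did not differ beyond counting error (0.62, −0.16 to 1.38). Streak-like cells had 56.7 CPM at MS-LS, near the 53.2 of the visceral endoderm-like cells (0.09, −0.28 to 0.46), and 18.9 at OB-EB. Nascent mesoderm-like cells at MS-LS were below streak-like cells in *Foxa2* (log2 ratio −2.72, −3.61 to −1.93), whereas for *Lhx1* they were above by 1.40 (1.15 to 1.65).

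**Figure D2:**
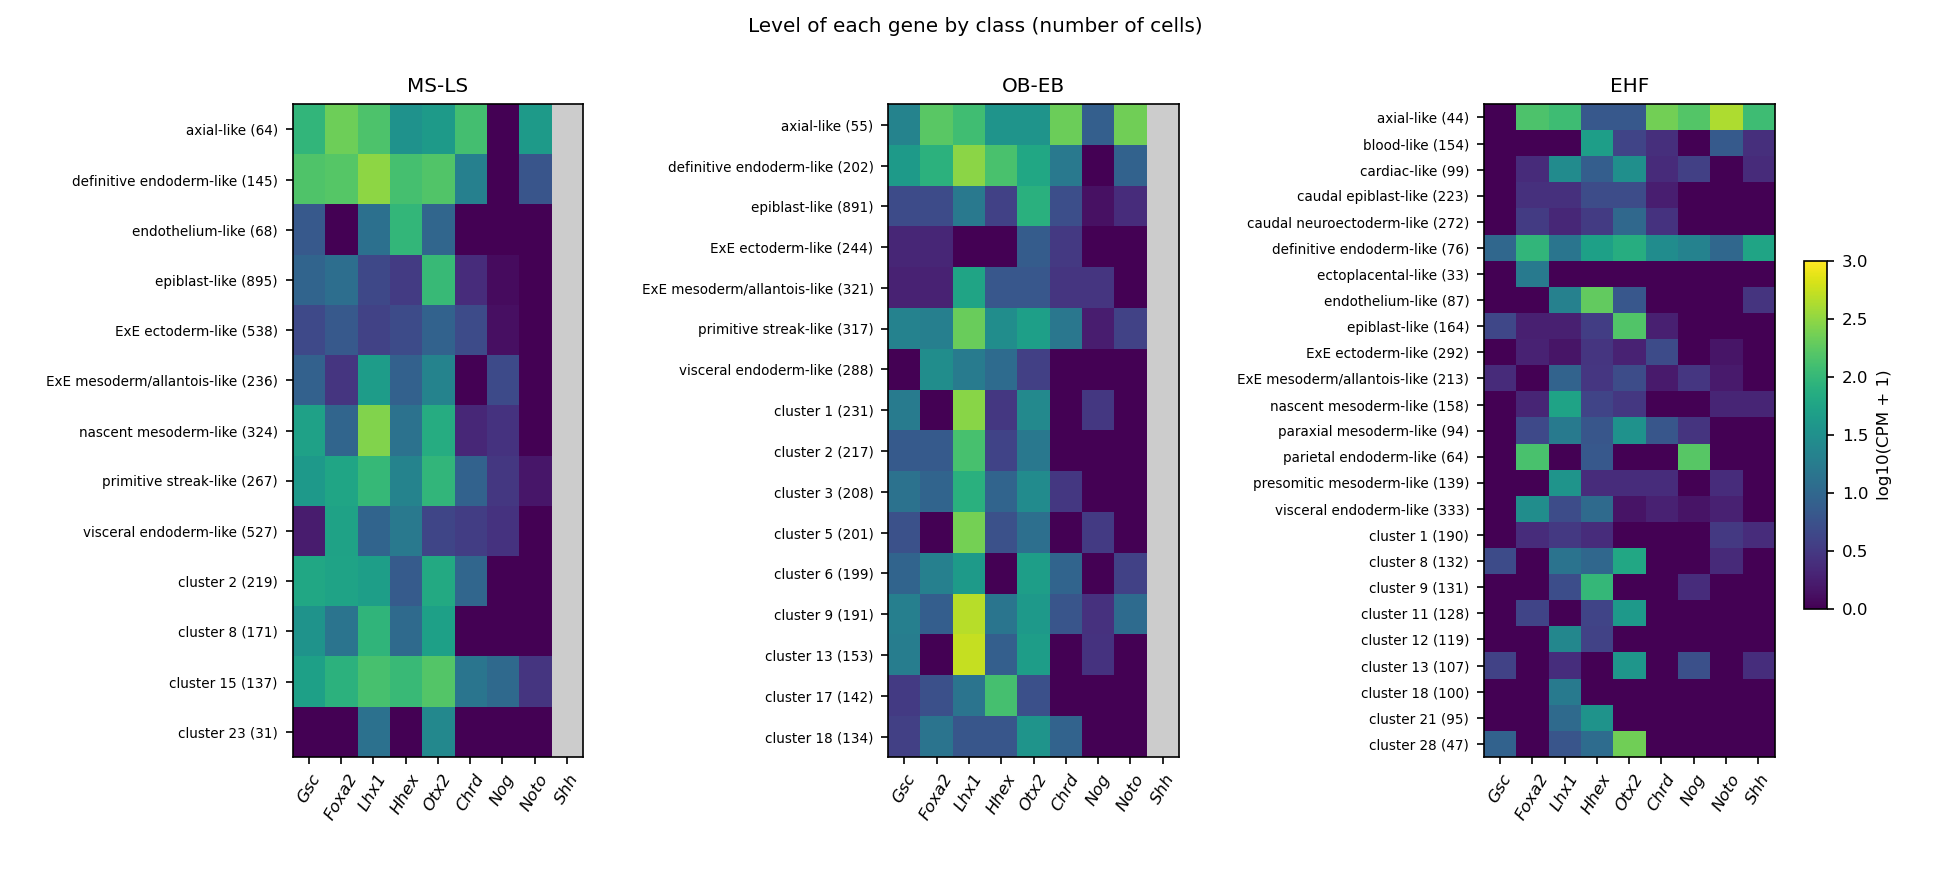
Heat maps of log10(CPM + 1) of the 9 genes (columns), 1 map per stage. Rows are named classes and unnamed clusters with at least 20 cells, with cell numbers. *Chrd* and *Noto* stand out in the axial-like row of each library. *Otx2* stands out in epiblast-like and DE-like rows and *Hhex* in DE-like and endothelium-like rows. *Foxa2* stands out in axial, DE-like, visceral and parietal endoderm-like rows, and *Shh* is grey where it is not listed.

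*Noto*, the homeobox gene of the node and notochord, was concentrated in the axial-like class and was higher there at each later stage. It was at 42.3 CPM (19.3 to 80.2, 9 UMIs), 224 (153 to 316) and 427 (336 to 537) in axial-like cells at MS-LS, OB-EB and EHF. OB-EB was above MS-LS by 2.40 on the log2 scale (1.30 to 3.66) and EHF above OB-EB by 0.93 (0.32 to 1.58). A *Noto* UMI was found in 12.5%, 45.5% and 72.7% of axial-like cells, and in 6.25%, 32.6% and 51.2% when every cell was cut at random to 1500 UMIs (thinning), against 0 of 538, 0 of 244 and 0.343% of extra-embryonic ectoderm-like cells. The axial-like class was 1.76%, 1.38% and 1.26% of the cells and held 60%, 61.5% and 80.4% of all *Noto* UMIs.

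*Chrd*, which encodes the BMP antagonist Chordin, was already at 127 CPM (83.6 to 185) in axial-like cells at MS-LS and was at 210 (142 to 299) at OB-EB and 231 (165 to 315) at EHF, which did not differ beyond counting error (0.14, −0.58 to 0.87). EHF was above MS-LS by 0.87 (0.13 to 1.63), a smaller step than that of *Noto* between the same stages (3.34, 2.34 to 4.52), and the intervals of these changes did not overlap. Axial-like cells were above the next class, the DE-like cells, at all 3 stages, by 2.72 (1.76 to 3.74), 3.77 (2.69 to 4.96) and 3.08 (2.12 to 4.14). *Chrd* was less restricted than *Noto*, since the axial-like class held 27.6%, 34.9% and 54.1% of its UMIs, and extra-embryonic ectoderm-like cells had a *Chrd* UMI in 1.67%, 0.820% and 2.74% of cells.

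*Chrd* and *Noto* had the most similar profiles of any pair among the 8 genes listed at all stages (Pearson r = 0.94 of log2(CPM + 10) over 32 classes, which share their library and its depth). Their promoters are shown because these genes were high in the same cells. The sequences are the 250 bases upstream of the annotated start on the plus strand, from RefSeq in GRCm38.p6, 5′ to 3′, with every CG in capitals:
*Chrd*, chr16:20732877-20733126: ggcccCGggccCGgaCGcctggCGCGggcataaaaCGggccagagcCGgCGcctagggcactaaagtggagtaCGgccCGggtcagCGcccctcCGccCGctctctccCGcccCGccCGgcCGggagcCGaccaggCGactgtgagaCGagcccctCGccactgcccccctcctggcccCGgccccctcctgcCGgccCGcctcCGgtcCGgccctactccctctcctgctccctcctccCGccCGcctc
*Noto*, chr6:85423636-85423885: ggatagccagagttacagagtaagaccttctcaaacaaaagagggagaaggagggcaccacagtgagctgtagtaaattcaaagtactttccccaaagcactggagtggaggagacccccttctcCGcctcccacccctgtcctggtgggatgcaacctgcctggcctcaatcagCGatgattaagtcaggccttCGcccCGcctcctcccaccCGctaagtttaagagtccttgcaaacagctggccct

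The *Chrd* sequence has 28 CG and is 78.0% G or C, and 93.2% of 32851 promoters of this length have as many CG or fewer. The *Noto* sequence has 5 CG and is 54.8% G or C, near the medians over these promoters (6 CG and 52.4%). Of the 9 genes, 7 had a promoter entry, and those of *Nog* and *Shh* are not given. Searched on both strands of the 250 bases, the letters TGTTTAC (a forkhead word) and TCACACC (a T-box word) were in none of the 7, and in 3.17% and 3.33% of all promoters. TAATCC and TAATTA, words read by homeodomains, were each found for *Otx2* only, while 6.25% and 4.84% of all promoters held them. *Otx2* and *Foxa2* have several promoter entries, and a gene was counted when any of its entries held the word. The shares over all promoters count single entries, so they are not on the same footing as the gene counts. A word is a description of the letters and not a site.

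*Nog*, which encodes the BMP antagonist Noggin, was late and came from unlike cells. In axial-like cells it had no UMI at MS-LS, 1 UMI at OB-EB and 27 at EHF, where its level was 156 CPM (102.8 to 227) and 43.2% of cells had it. The log2 ratio of EHF over OB-EB was 4.48 with an interval of 1.88 to 9.84, and EHF was at least 3.47 above MS-LS when the latter was set to a floor of 3 UMIs for the whole class. At EHF the parietal endoderm-like class (64 cells, median 2742.5 UMIs) had *Nog* at the same level, 164 CPM (110 to 235), in 32.8% of cells (22.2% after thinning), while no extra-embryonic ectoderm-like cell had it. Axial-like cells held 35.5%, parietal endoderm-like cells 38.2% and DE-like cells 11.8% of all *Nog* UMIs at EHF. The parietal endoderm-like cells were above visceral endoderm-like cells by 8.52 in *Nog* (5.92 to 13.87, 29 UMIs against 1) and by 2.24 in *Foxa2* (1.501 to 2.94), and had no UMI of *Chrd*, *Noto* or *Shh*.

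*Shh* had a value at EHF alone. It was at 116 CPM (70.6 to 178, 20 UMIs) in axial-like and 54.9 (35.1 to 81.6, 24 UMIs) in DE-like cells, a log2 ratio of 1.08 (0.14 to 1.99). These classes held 39.2% and 47.1% of its UMIs. It was found in 27.3% of axial-like cells (16.3% after thinning) and 18.4% of DE-like cells (median 5116.5 UMIs), against 0 of 292 extra-embryonic ectoderm-like cells and 0 of 333 visceral endoderm-like cells.

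Among 44 axial-like cells at EHF, 13 (29.5%) were in the 5% of the library with the highest doublet scores, while none of the 64 and 55 axial-like cells of the earlier stages were. Without these cells *Chrd* was at 342 and *Noto* at 663 CPM in the EHF axial-like class, above the values with all cells. The part of doublets in the axial-like levels was not tested otherwise.

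The visceral endoderm is the other known source of several of these genes. The visceral endoderm-like class was named by markers such as *Apoa1*, *Ttr* and *Afp*, none of them particular to the anterior part. Whether anterior visceral endoderm cells fell in this class was not tested. In the class, levels of the 5 transcription factors *Foxa2*, *Hhex*, *Lhx1*, *Otx2* and *Gsc* lay below those of DE-like cells wherever a ratio could be had, apart from *Lhx1* at EHF. *Foxa2* was at 53.2 CPM (45.0 to 62.4), 28.4 (19.3 to 40.3) and 28.6 (22.0 to 36.5) in visceral endoderm-like cells at the 3 stages. The log2 ratios of visceral endoderm-like over DE-like cells were −1.59 (−1.94 to −1.24), −1.55 (−2.24 to −0.89) and −1.71 (−2.30 to −1.11), so they hardly moved between stages. Because the class was large, it still held 24.8%, 18.0% and 37.4% of all *Foxa2* UMIs. *Hhex* was at 15.2, 10.1 and 9.84 CPM, with ratios of −3.07 (−3.62 to −2.54), −3.75 (−4.81 to −2.84) and −2.35 (−3.28 to −1.43). *Lhx1* was at 8.15, 16.5 and 4.02 CPM, with ratios of −5.23, −4.19 (−4.98 to −3.49) and −1.77, the last of which reached 0 (−3.42 to 0.00262) with 6 UMIs left in DE-like cells.

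*Otx2* and *Gsc* were close to absent from the visceral endoderm-like class. *Otx2* had 9, 3 and 1 UMIs there, and its ratios to DE-like cells were −5.59 (−6.75 to −4.62), −4.45 (−6.79 to −2.80) and −7.35 (−12.7 to −4.77). *Gsc* had 2 UMIs at MS-LS and none at the later stages, and the MS-LS ratio was −7.71 (−10.77 to −5.83). A further cluster of 137 cells at MS-LS (cluster 15, median 3329 UMIs) combined *Otx2* at 158 CPM (125 to 196), *Hhex* at 108, *Lhx1* at 133, *Foxa2* at 84.6 and *Gsc* at 49.98. Its leading genes were *Dkk1*, *Kitl*, *Fzd5*, *Gpc4*, *Sfrp1* and *Spink1*. It scored highest for DE, with 9 detected DE markers, but held more leading genes of another type and was not given a name, so its cells count neither as DE-like nor as visceral endoderm-like here. The smaller of the OB-EB DE-like clusters (cluster 26, 44 cells) was led by *Spink1*, *Dkk1*, *Gpc4*, *Amot* and *Kitl*, which also led cluster 15. It had *Lhx1* at 136 CPM (79.3 to 218), *Foxa2* at 88.0 (44.0 to 158), *Hhex* at 64.03 (27.6 to 126) and 1 UMI of *Gsc*, beside 340 (292 to 394), 82.1 (59.4 to 111), 153 (121 to 190) and 26 UMIs in the larger cluster 11 (158 cells). DE-like cells thus differed among themselves in *Lhx1*, with intervals apart, but not beyond counting error in *Foxa2*.

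**Figure D3:**
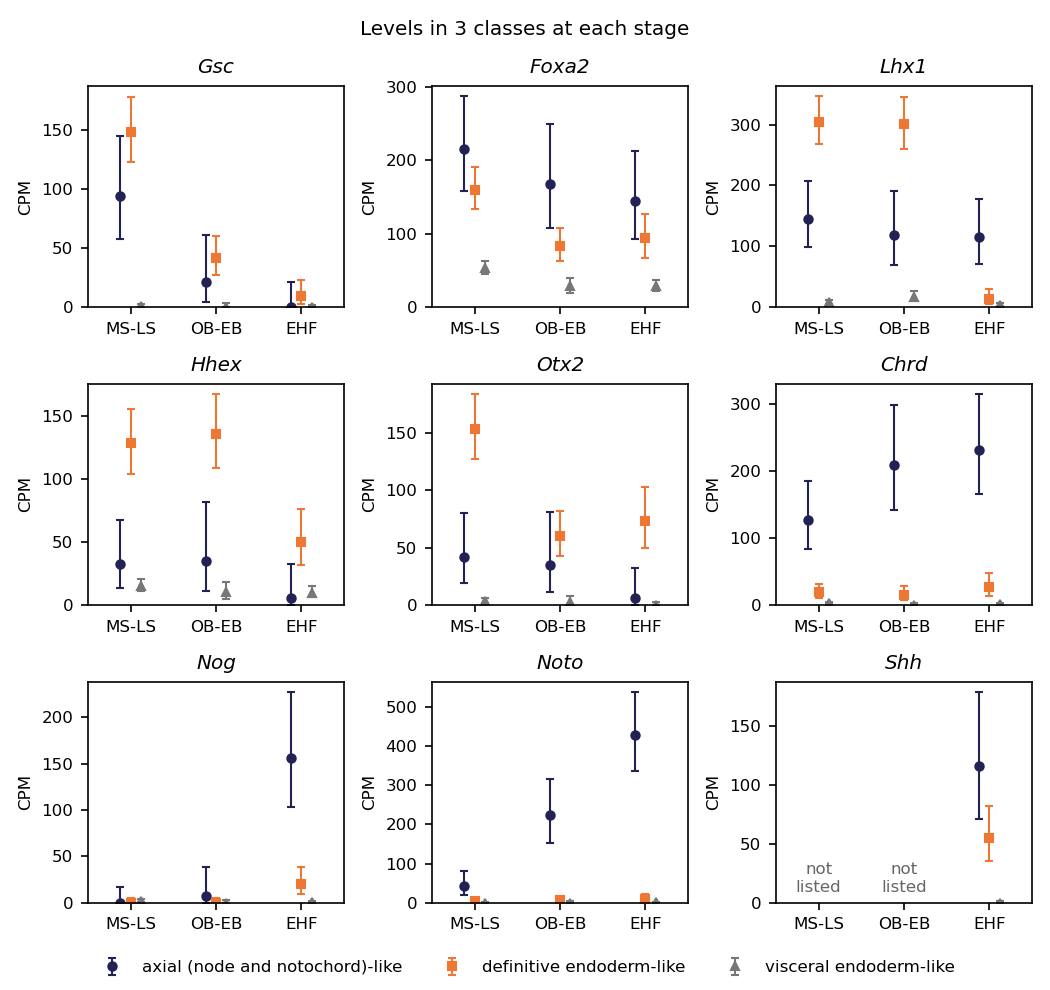
Level in CPM, with exact Poisson 95% intervals, of each of the 9 genes in axial-like, definitive endoderm-like and visceral endoderm-like cells at MS-LS, OB-EB and EHF. *Noto* and *Nog* rise in axial-like cells, *Lhx1* drops from 301 to 13.7 in definitive endoderm-like cells while axial-like cells keep 116, and visceral endoderm-like cells lie below definitive endoderm-like cells in *Foxa2* at every stage.

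To set these genes beside all others, axial-like and DE-like cells were each compared with the other cells of embryonic classes of the same library, and a gene was counted when it differed at least 2-fold with an interval of the ratio beyond 1. This count is not a test, since the classes were formed on the same cells. In axial-like cells 4 of 8 genes were higher at MS-LS (*Noto* 6.42 on the log2 scale, *Chrd* 5.08, *Foxa2* 2.88, *Gsc* 1.54), where 3.4% of 12144 genes were, and *Otx2* was lower (−1.07), where 2.47% were. At OB-EB 3 of the 7 genes with at least 10 UMIs were higher (*Noto* 6.68, *Chrd* 4.82, *Foxa2* 3.44), beside 3.69% of 11454 genes, and none was lower, beside 1.66%. At EHF 6 of 9 were higher (*Noto* 8.64, *Nog* 6.74, *Chrd* 6.63, *Shh* 5.41, *Foxa2* 4.83, *Lhx1* 3.09), beside 8.85% of 13517 genes, and none was lower, beside 2.76%. The median log2 ratios of those of the 9 genes with at least 10 UMIs, past 2-fold or not, were 1.09, 0.89 and 4.83. Those of all genes were −0.29, −0.22 and −0.22.

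In DE-like cells *Foxa2* was higher at each stage, as in axial-like cells, and *Hhex*, which was not higher in axial-like cells at any stage, was higher as well. At MS-LS 6 of 8 genes were higher (*Hhex* 3.35, *Foxa2* 2.81, *Gsc* 2.62, *Noto* 2.29, *Lhx1* 1.94, *Chrd* 1.88), beside 2.72% of all genes. At OB-EB 4 of 7 were higher (*Hhex* 3.67, *Foxa2* 2.87, *Gsc* 2.40, *Lhx1* 2.01), beside 5.03%, and at EHF 7 of 9 (*Foxa2* 4.70, *Shh* 4.52, *Gsc* 3.93, *Nog* 2.64, *Chrd* 2.40, *Hhex* 1.62, *Otx2* 1.49), beside 6.09%. The values of *Noto* at MS-LS and of *Gsc* at EHF rest on only 4 UMIs each in DE-like cells. None of the 9 was counted as lower in DE-like cells, beside 3.01%, 3.27% and 3.14% of all genes in stage order. The medians were 2.12, 2.01 and 2.40, against −0.09, −0.10 and −0.08 for all genes.

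The pathways in which the secreted members act were read from lists that were also chosen by name. Of the Hedgehog list, which holds receptors, transducers and targets of SHH, *Ptch1*, an SHH receptor gene and target, was higher in axial-like cells at EHF (196 against 57.8 CPM, log2 ratio 1.76), and no gene was lower, beside 8.85% of all genes higher and 2.76% lower. In DE-like cells at EHF *Hhip* (4.69) and *Cdon* (1.58) were higher and *Gas1* was lower, beside 6.09% and 3.14% of all genes. At the earlier stages 9 (MS-LS) and 7 (OB-EB) genes of the list had at least 10 UMIs, and none was higher in either class. Of all genes, 3.4% and 3.69% were higher in axial-like and 2.72% and 5.03% in DE-like cells, so 0 among so few is near those shares. *Gas1* was lower in axial-like cells at MS-LS, *Gli3* and *Gas1* were lower in DE-like cells at MS-LS, and *Gli2*, *Gli3* and *Gas1* in DE-like cells at OB-EB, while no gene was lower in axial-like cells at OB-EB. Of all genes, 2.47% and 1.66% were lower in axial-like and 3.01% and 3.27% in DE-like cells at MS-LS and OB-EB. Of the BMP list, the ligands and receptors on whose pathway Chordin and Noggin act, 1 of 10 was higher in axial-like cells at EHF (*Bmp7*, 1.73) and 2 were lower (*Bmp4* and the receptor gene *Bmpr1a*), beside 8.85% and 2.76% of all genes, so that 1 of 10 was near the share over all genes. Of 10 BMP genes, 1 was higher (*Bmp2*) and 1 lower (*Bmpr1a*) in axial-like cells at MS-LS and 0 in both directions at OB-EB. The BMP counts at these stages and those in DE-like cells stand beside the shares of all genes given above. In DE-like cells *Bmp7* was higher at all 3 stages, with *Bmp2* at MS-LS and OB-EB and *Twsg1* at OB-EB, and *Bmp4* was lower at OB-EB and EHF. The median log2 ratios of the BMP list were −1.19, −0.33 and −1.71 in axial-like and −0.32, −0.23 and 0.16 in DE-like cells.

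Other secreted antagonists of the anterior side were read in the same way. Of 8 such genes, 5, 5 and 4 were higher in DE-like cells at the 3 stages, beside 2.72%, 5.03% and 6.09% of all genes, and 2, 2 and 1 were lower (*Lefty2* and *Fst* at MS-LS and OB-EB, *Fst* at EHF), beside 3.01%, 3.27% and 3.14%. The genes that were higher included *Cer1*, an antagonist of Nodal, BMP and Wnt ligands, at 6.27, 5.36 and 5.89. *Cer1* and *Shisa2* were among the markers that named this class. In axial-like cells 1, 0 and 2 were higher, the last being *Fst* and *Dkk1*, and 3, 2 and 0 were lower, beside 3.4%, 3.69% and 8.85% of all genes higher and 2.47%, 1.66% and 2.76% lower. The medians of the list were 3.18, 3.70 and 0.57 in DE-like and −1.43, −1.80 and −0.36 in axial-like cells. Of 14 mesendoderm regulators, 3, 6 and 8 were higher in axial-like cells and 1 was lower at each stage (*Sox17*, *Sox17* and *Gata6*), beside the same shares of all genes. Those that were higher included *Foxj1*, *Foxa1* and *T* at each stage. *Foxj1* and *T* named the axial-like class, so their direction follows from the naming. In DE-like cells 5, 6 and 5 were higher, with *Sox17* and *Foxa1*, also naming markers, at each stage, and *Cfc1* and *Hesx1* besides. At OB-EB *Mixl1* and *T* and at EHF *Mixl1* and *Gata6* were lower, and at MS-LS none. The medians of this list were 0.10, 0.89 and 2.03 in axial-like and 0.77, 1.15 and 0.29 in DE-like cells.

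The study compared primitive streak cells of the MS-LS and OB-EB stages. For this comparison, streak cells were taken by barcode from the authors' own clusters (354 cells at MS-LS, of which 36 belong to a cluster called anterior, and 252 at OB-EB, with medians of 5518.5 and 2809.5 UMIs). *Foxa2* had 174 UMIs in MS-LS and 6 in OB-EB streak cells, or 76.8 against 8.13 CPM, a log2 ratio of MS-LS over OB-EB of 3.24 (2.09 to 4.71). *Gsc* had 138 against 12 UMIs (60.9 and 16.3 CPM, ratio 1.91, 1.06 to 2.89). *Hhex* had 48 against 4 UMIs (21.2 and 5.42 CPM, ratio 1.97, 0.52 to 3.90). These genes of the anterior streak were thus lower in the later streak cells, as was *Otx2* (90.1 and 35.2 CPM, ratio 1.36, 0.76 to 2.003).

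*Lhx1* stayed level between the streak cells of both stages, with 105 and 118 CPM (−0.17, −0.53 to 0.20), and *Chrd*, with 29 against 5 UMIs, did not differ beyond counting error (0.92, −0.47 to 2.65). *Nog* and *Noto* had 4 UMIs each at MS-LS and none at OB-EB and were left without a ratio. In the same cells *T* was higher at OB-EB (−1.73, −1.995 to −1.47) and *Eomes*, a T-box gene of the early streak, higher at MS-LS (1.06, 0.75 to 1.39). Of the 6 members with at least 10 UMIs, 4 were at least 2-fold higher at MS-LS, beside 5.07% of 9474 genes, and none was lower, beside 3.78%. Their median was 1.63 beside 0.15 for all genes. The paper names all 6, from these same libraries, among the genes enriched in the anterior streak at MS-LS. The counts are therefore not independent of that result. These counts include the anterior cells, without which the interval of *Hhex* held 0 (1.35, −0.16 to 3.32). In the streak-like classes rebuilt here *Foxa2* stayed past 2-fold (1.59). There *Gsc* (0.99), *Otx2* (−0.98 as OB-EB over MS-LS) and *Hhex* (−0.43) did not reach 2-fold higher at MS-LS. The share over all genes is given for the full set of streak cells only.

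The share of streak cells with a *Foxa2* UMI was 25.4% at MS-LS and 2.38% at OB-EB, and 8.78% and 0.816% after thinning to 1500 UMIs. For *Gsc* it was 26.6% and 3.18% (9.07% and 1.63% thinned) and for *Otx2* 36.4% and 9.13% (12.2% and 5.31%). *Lhx1* was found in 29.9% and 19.1% of cells before thinning but in 11.6% and 13.9% after it, so its order turned with thinning. The extra-embryonic ectoderm-like cells of the same libraries had *Foxa2* in 1.49% and 0.410%, *Gsc* in 1.86% and 0.410%, *Otx2* in 2.97% and 1.64% and *Lhx1* in 1.12% and 0% of cells.

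Leaving out the anterior cluster kept the direction of *Foxa2*, *Gsc* and *Otx2* and changed the reading of *Hhex* and *Lhx1*. In its 36 cells *Foxa2* was at 279, *Gsc* at 230, *Hhex* at 115, *Chrd* at 78.8 and *Lhx1* at 357 CPM. These values may describe how the cluster was found, since its authors clustered on highly variable genes and describe no holding out of these genes. Without it the ratios of MS-LS over OB-EB were 2.91 (1.75 to 4.38) for *Foxa2*, 1.55 (0.68 to 2.55) for *Gsc* and 1.23 for *Otx2*, while *Hhex* (1.35, −0.16 to 3.32) reached 0 and *Lhx1* became higher at OB-EB (−0.48, −0.85 to −0.09). When the streak-like classes rebuilt without the 9 genes were used (267 and 317 cells), the ratio was 1.59 (0.96 to 2.26) for *Foxa2*, 0.99 (0.35 to 1.67) for *Gsc* and −1.03 (−1.30 to −0.76) for *Lhx1*, and that of *Hhex* changed its sign (−0.43, −1.11 to 0.24). The ratio of *Chrd* changed its sign as well (−0.88, −1.95 to 0.16), and the intervals of *Hhex* and *Chrd* held 0. Of the 36 anterior cells, 15 were in the DE-like class of this clustering, 8 in the streak-like class, 8 in unnamed cluster 2 and 3 in the axial-like class.

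**Figure D4:**
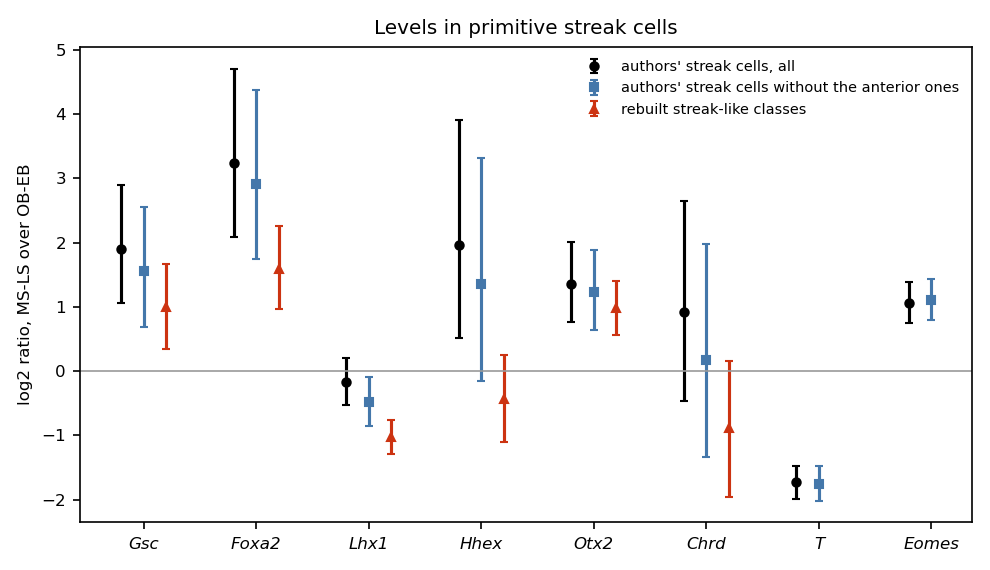
Log2 ratio of CPM in streak cells, MS-LS over OB-EB, for the genes with a ratio and for *T* and *Eomes*, with exact 95% intervals; black, all streak cells of the authors; blue squares, without the anterior cluster; red triangles, streak-like classes rebuilt here. *Foxa2* and *Gsc* lie above 0 in each series, *Lhx1* lies at or below 0, *T* lies at −1.73 and *Hhex* and *Chrd* cross 0 with the rebuilt classes.

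Co-detection was counted in single cells, and since deeper cells show more genes it is given with the share over all cells of the same group. Of the 28 pairs that could be read at MS-LS, 27 had at least 1 cell with a UMI of both, as had 25 of 28 at OB-EB and 33 of 36 at EHF. *Gsc* and *Lhx1* went together before the head fold stage. At MS-LS 183 of 331 cells with *Gsc* had *Lhx1* (55.3%, against 15.8% of all cells), and 30.2% against 7.53% after thinning. At OB-EB it was 68 of 102 (66.7% against 18.65%), and 54.3% against 13.2% after thinning. The excess was also read within classes. Within nascent mesoderm-like cells at MS-LS the share was 82.9% (58 of 70) against 63.6% of all cells of the class, and within DE-like cells at OB-EB 79.2% (19 of 24) against 47.5%. These within-class shares are given before thinning. The nascent mesoderm-like class joins clusters with medians of 3609 and 7783 UMIs, and the DE-like class joins clusters 11 and 26, which differed in *Lhx1*. The part of depth and of this mixture in the excess was not tested. In DE-like cells at MS-LS the *Foxa2*-positive cells had *Lhx1* in 70.6% (48 of 68), close to the 67.6% of the whole class.

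In the node and notochord the shared cells were those of *Noto*. Among cells with *Chrd*, *Noto* was found in 9 of 81, 14 of 70 (20%) and 19 of 55 (34.5%) at the 3 stages, where 0.385%, 1.052% and 1.26% of all cells had it. Within axial-like cells, *Noto* was in 14 of 19 (73.7%) *Foxa2*-positive cells at OB-EB against 45.5% of the class, and in 16 of 19 (84.2%) at EHF against 72.7%. It was in 11 of 12 *Shh*-positive axial-like cells. Of the cells with *Shh* at EHF, 18 of 32 had *Foxa2* (56.3%), and of those with *Nog*, 22 of 58 (37.9%), where 3.98% of all cells had it.

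Cells with UMIs of at least 4 of the 9 genes numbered 96, 30 and 19. At MS-LS 40 of them were DE-like, which is 27.6% of that class, and 24 were streak-like. At EHF 12 were axial-like, 27.3% of the class, and 6 were DE-like. Depth moved with this count at the earlier stages, as cells with exactly 4 genes had medians of 6450, 4361 and 3529 UMIs and cells with none had 3981, 2459 and 5393.

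*Foxa2* and *T* were next read in the same cells, a pair the study also examined. Over whole libraries a *T* UMI was found in 76 of 393 cells with *Foxa2* at MS-LS (19.3%, 15.6 to 23.6, against 12.9% of all cells), in 41 of 147 at OB-EB (27.9% against 16.6%) and in 40 of 139 at EHF (28.8% against 19.3%). After thinning these were 6.87% against 5.38%, 14.7% against 9.84% and 20.8% against 9.73%. Extra-embryonic ectoderm-like cells had *T* in 8.74%, 9.02% and 6.16% of cells. In the authors' streak cells at MS-LS, 37 of 90 cells with *Foxa2* had *T* (41.1%), against 39.3% of all these cells, and 16.1% against 16.2% after thinning. At OB-EB 5 of the 6 streak cells with *Foxa2* had *T* (83.3%, 35.9 to 99.6, against 54.8%), too few to set beside the earlier stage. At EHF all 19 axial-like cells with *Foxa2* had *T*, as did all 44 cells of the class, for which *T* was a naming marker, and in DE-like cells it was 12 of 28 (42.9%, against 31.6% of the class).

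The other genes differed in how far they went with *T*. At EHF *T* was found in 93.2% of cells with *Noto* (88.5% thinned), 84.4% with *Shh* (72.2% thinned), 63.6% with *Chrd* and 50% with *Nog*, but in 16.1% of cells with *Hhex* (1.45% thinned), 11.8% with *Gsc* (2 of 17) and 9.62% with *Otx2*, where 19.3% of all cells had it. For *Chrd* the shares in stage order were 29.6%, 51.4% and 63.6%, and for *Noto* 35.7% (5 of 14 cells), 50% and 93.2%.

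**Figure D5:**
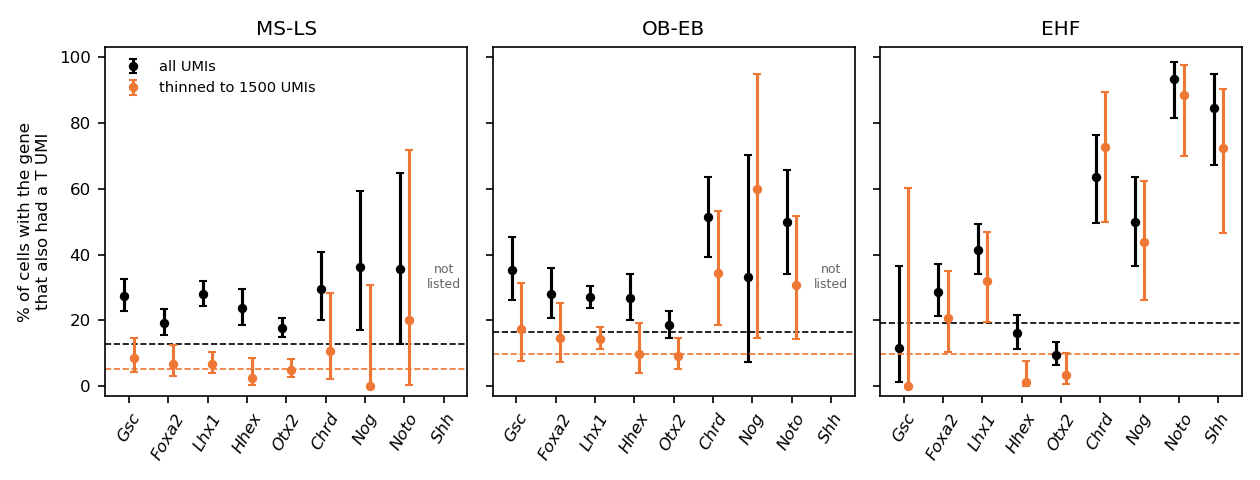
Percent of the cells with a UMI of each gene that also had a *T* UMI at each stage, with exact binomial 95% intervals; black, all UMIs; orange, after thinning to 1500 UMIs per cell; the dashed lines give the share of all cells. Before thinning, *Noto* rises from 35.7% (5 of 14 cells) to 93.2%, *Foxa2* lies between 19.3% and 28.8%, and *Otx2* lies under the share of all cells at EHF. After thinning, *Foxa2* is at 6.87%, 14.7% and 20.8% in stage order.

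The reporter was read at EHF, where tamoxifen had been given at E7+7h and tdTomato marks cells that expressed *T* after it, and their descendants. A tdTomato UMI was found in 403 of 3494 cells (11.5%, and 4.21% after thinning) and in 3 of 292 extra-embryonic ectoderm-like cells (1.03%). Among cells with *Lhx1* it was in 61 of 176 (34.7%, 27.7 to 42.2), among those with *Shh* in 11 of 32 (34.4%, 18.6 to 53.2), with *Chrd* in 11 of 55 (20%) and with *Noto* in 8 of 44 (18.2%). For *Foxa2* it was 12 of 139 cells (8.63%), an interval of 4.54 to 14.6 that held the share of all cells, as did that of *Gsc* (1 of 17, 0.149 to 28.7). *Otx2* had 7.56% (4.80 to 11.2) and *Hhex* 5.05% (2.55 to 8.85), of which the interval of *Hhex* lay below that of all cells (10.5 to 12.6). After thinning, the shares were 6% for *Lhx1*, 2.08% for *Foxa2* and 15.4% for *Noto*, from 3, 1 and 4 positive cells. By class, 25.0% of axial-like cells (11 of 44), 9.21% of DE-like cells, 0.901% of visceral endoderm-like cells and none of 64 parietal endoderm-like cells had tdTomato, so the *Foxa2*-positive cells come from classes with unlike shares.

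For each gene the most similar profiles over the named classes were sought among 11278 other genes (11324 for *Shh*, over 16 EHF classes), by Pearson r of log2(CPM + 10) over 32 classes. *Noto* was followed most closely by *Cfap126*, *Dynlrb2* and *Tekt1* (r = 0.97, 0.97 and 0.96), and *Chrd* by *Foxj1*, *Pifo* and *Efcab10* (0.96, 0.95 and 0.95), genes of motile cilia for the most part. Several of these named the axial-like class. *Shh* was followed by *Foxa1* (0.97), *Samd3* and *Rabgap1l*, and *Foxa2* by *Mvb12b*, *Dgkk* and *Foxa1* (0.80, 0.80 and 0.79). *Lhx1* was followed by *Lhx1os* (0.88), *Cdh2* and *Pcdh7*. *Lhx1os* lies antisense beside *Lhx1*, and how the counting treated strand is not given in the sources used here, so their reads may not be told apart. *Gsc* was followed by *Tdgf1* (0.86), *Fgf5* and *Gm37760*, *Otx2* by *Shisa2* (0.77), *Socs2* and *Lbh*, *Hhex* by *Flt1* (0.74), *Atp8a1* and *Fzd8*, and *Nog* by *Btg1* (0.88), *Neat1* and *Eri3*. Among the 9 genes, *Shh* and *Chrd* (0.95, over 16 classes) and *Gsc* and *Lhx1* (0.76) were alike, whereas *Noto* and *Otx2* were not (0.08).

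The 9 genes lie on 8 chromosomes of GRCm38, with *Lhx1* and *Nog* both on chromosome 11. *Noto* spans chr6:85423886-85428877 and *Chrd* chr16:20733127-20742384 on the plus strand, as does *Hhex* at chr19:37434810-37440731. On the minus strand are *Foxa2* (chr2:148042877-148046969), *Shh* (chr5:28456815-28467256), *Lhx1* (chr11:84518284-84525535), *Nog* (chr11:89300638-89302332), *Gsc* (chr12:104471209-104473330) and *Otx2* (chr14:48657677-48673819). The UMIs come from the 3′ ends of these genes, so their isoforms were not told apart.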

How the data were processed

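The authors made 10x Chromium 3′ libraries from pooled embryos dissociated with papain, counted UMIs with CellRanger 3.0.2 (version from the submitters' processing notes) against GRCm38 with the reporter's sequences added, and removed barcodes with under 500 genes, under 1000 UMIs or a mitochondrial share more than 3 SD above the mean. The values they deposited are counts, whole UMIs per gene and cell, without normalization. The libraries summed to 17966956 (MS-LS), 12181436 (OB-EB) and 20376539 UMIs (EHF). A second EHF table differed in 0 of 65128160 places and was counted once, as 1 sample.

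Each library was clustered on its own (Seurat 5.3.0, R 4.3.3, log-normalised, scale factor 10000, 2000 variable genes without the 9 genes or the reporter, 50 principal components, resolution 4.5). A cluster was named after the best of 21 cell types with at least 3 detected markers (a UMI in at least 20% of cells, at least 2 times the level of other cells), a margin of 0.2 in its score (pseudocount 10 CPM) and no other type ahead of it in markers among the 10 leading genes, and not where its depth was low without a leading marker. Streak cells came from the barcodes the authors list for their streak clusters. Their lists of other clusters were read only in part, and none of these enters a result. Ratios are log2 of CPM with the exact interval of the ratio of UMI sums, and a sum of 0 was set to a floor of 3 UMIs over the group. Scrublet in scanpy 1.11.5 with its automatic threshold marked 9, 0 and 14 cells, too few to have worked, so doublets were kept and a fit without the highest 5% of scores was tried. Sums, intervals and figures came from scipy 1.17.1, pandas 2.3.3, numpy 2.4.6 and matplotlib 3.10.9 under Python 3.11.15, with the scripts' statistics tested on simulated data.

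The genes named are the 9 genes, *T*, *Eomes*, the reporter, the genes of the lists (BMP, Hedgehog, secreted antagonists, mesendoderm regulators) and the 3 genes most like each. The genes, the lists and the markers were chosen with earlier results of these data known. Genes outside this rule are named only as leading genes of clusters, after their values were seen. A gene of the Hedgehog list is not reported here, so no EHF counts are given for that list.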

Additional observations from a re-analysis of the deposited data

Results flagged for a closer look

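The difference of *Lhx1* between axial-like and DE-like cells had opposite signs at different stages. The log2 ratio of axial-like over DE-like cells was −1.07 (−1.66 to −0.52) at MS-LS and −1.34 (−2.15 to −0.62) at OB-EB, and 3.08 (1.71 to 4.68) at EHF. The UMIs behind these ratios were 31, 17 and 20 in axial-like and 238, 195 and 6 in DE-like cells. With 1 library per stage the difference between stages was not tested.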

How the results depend on the processing

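Of the alternative values of the main results, 257 kept their direction and stayed within the counting interval, 14 moved and 1 reversed. Streak-like classes rebuilt here in place of the authors' streak cells gave log2 ratios of MS-LS over OB-EB of 0.99 for *Gsc*, 1.59 for *Foxa2*, −1.03 for *Lhx1* and −0.88 for *Chrd*, and −0.43 for *Hhex*, which is counted as reversed although its interval held 0 (−1.11 to 0.24). *Chrd* also changed sign, from 0.92, with intervals that held 0 in both settings, and is counted as moved. After thinning, the share of *Foxa2*-positive cells with *T* was 6.87%, 14.7% and 20.8%, that of *Chrd*-positive cells with *Noto* 3.57% at MS-LS and 9.38% at OB-EB, and that of *Foxa2*-positive cells with tdTomato 2.08%, since thinning takes UMIs away. At resolution 2 the ratio of visceral endoderm-like over DE-like cells for *Lhx1* at MS-LS was −6.09. With the 9 genes among the variable genes *Lhx1* in DE-like cells at OB-EB was 373 CPM. Without the highest doublet scores *Chrd* and *Noto* in EHF axial-like cells were 342 and 663 CPM. The causes of these last 4 moves were not tested. Of the values of other genes, classes and counts, 2687 stayed and 111 moved. Size factors, the mitochondrial limit, no filter on low counts, and a pair of alternatives chosen after seeing the data (no naming margin, and the OB-EB DE-like class without its smaller cluster) moved none. No paired analysis was possible because each stage has 1 library, and for the same reason no replicate could be left out. Depth limits the rare genes most: 3 UMIs over the axial-like class correspond to 14.1, 21.0 and 17.3 CPM.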
